A study of Rattus norvegicus with 24 samples.

Results

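Collagen genes were taken as the probe sets whose single gene symbol in the platform annotation was Col, a number, the letter a and a number, a rule that used no measured value. The rule found 58 probe sets for 41 genes, of 31042 probe sets without controls and 14217 genes on the array. For 14 of the 41 genes there were several probe sets, and each gene was represented by the one with the highest mean over all arrays. By the assembly its chains form, 11 genes were fibrillar, 8 belonged to basement membranes and their margins, and 22 to other types. After the dimmest 40% of probe sets by mean level were left out, the tests held 25 of the 41 genes, 10 fibrillar, 4 basement membrane and 11 others. The other 16 genes were too dim to enter the tests.

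Collagens are triple helices of chains made in the endoplasmic reticulum, where prolines and lysines are hydroxylated before the helix is secreted. Fibrillar collagens (types I, II, III, V, XI, XXIV and XXVII) give tissues tensile strength, network collagens such as type IV form the sheet of basement membranes, and smaller types decorate fibrils or sit in cell membranes. Healthy brain parenchyma holds little fibrillar collagen, most of which lies in the meninges and around larger vessels, while type IV surrounds every capillary.

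The arrays were Affymetrix rat expression arrays, 1 for each of 24 adult male Fisher 344 rats aged 11 to 12 weeks. The rats received a single dose of D-serine, a co-agonist of the NMDA receptor, or vehicle, and were killed 96 h later. There were 4 rats in each of 6 groups, given 0 (vehicle), 5, 20, 50, 200 or 500 mg/kg, and no genetic change or other agent is named for any group. About 30 mg of forebrain per rat gave the total RNA, the labels naming no subregion. Each label names its own animal, so the spread within a group joins differences between animals with those of dissection, RNA and array.

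Levels are given as log2(intensity + 16) after quantile normalization and differences from vehicle as log2 differences ± SE. A gene is said to have fallen or risen where limma's moderated test gave an adjusted p under 0.05 by the Benjamini-Hochberg method over all 18625 probe sets tested. Median intensity per array ran from 55.8 to 103.65 before normalization. The number of arrays, 4 per group, limits the precision, the median SE of a difference being 0.14 on the log2 scale. In pieces of whole tissue, fewer cells of a type and less RNA per cell cannot be told apart.

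One array stood apart. On replicate 4 at 500 mg/kg, Gabra6, a receptor subunit of cerebellar granule cells, stood at 10.73 against 4.40 to 5.98 on the other arrays. Nrgn, a forebrain neuron gene, stood at 6.41 there against 10.82 to 11.77 elsewhere. Ttr, the transthyretin gene that marks choroid plexus epithelium, also fell into separate ranges. It stood between 12.63 and 13.09 on 5 arrays (replicate 2 of vehicle, replicate 3 at 50, replicates 1 and 4 at 200, and replicate 4 at 500 mg/kg) and between 5.88 and 7.84 on the other arrays. None of the 5 and 20 mg/kg arrays had high Ttr. Cldn5, of endothelium, stood between 8.45 and 9.23 on all arrays, and Mbp, of myelin, between 12.71 and 13.23. The wider list of myelinating oligodendrocytes lay below vehicle for 11 of 11 tested genes of 12 at both 5 and 20 mg/kg, with medians of -0.39 and -0.49, more than those of the collagen genes given below, and for 9 of 11 at each higher dose (medians from -0.12 to -0.04). Its summed normalized intensity ran from 17732 to 28851 on vehicle arrays, from 15311 to 18992 at 5 and from 12676 to 19266 at 20 mg/kg. Of 8 tested thalamic neuron markers of 9, 7 were lower than vehicle at 5 mg/kg and all 8 at 20 mg/kg, with medians of -0.59 and -0.57. Their summed normalized intensity ran from 985 to 4953 on vehicle arrays and from 809 to 1205 over both of these doses. Vehicle replicate 2 alone was high, the mean deviation of these markers from their own means being 1.755 there. It was -0.08, -0.19 and 0.02 on vehicle replicates 1, 3 and 4, from -0.36 to -0.01 at 5 and from -0.50 to -0.18 at 20 mg/kg. Neither list had a gene that passed against vehicle, with 2 and 4 myelin genes and 1 and 2 thalamic genes at an unadjusted p under 0.05 in limma at these doses. The part of both lists in the collagen results was not tested. Tbr1, a transcription factor of cortical neurons in the forebrain marker list, rose at 5 mg/kg (1.11 ± 0.25, adjusted p = 0.00931) and at 20 mg/kg (1.16 ± 0.25, adjusted p = 0.00459), and its part in the collagen results was not tested.

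RNA measures also moved with dose. For actin, the deposited intensity of the control probe set at the 3′ end over that at the 5′ end was, as log2, 2.56 ± 0.19 (SD, n = 4) with vehicle, 1.69 ± 0.11 at 5, 1.60 ± 0.18 at 20, 1.87 ± 0.08 at 50, 2.46 ± 0.15 at 200 and 2.51 ± 0.22 at 500 mg/kg. At 5, 20 and 50 mg/kg no ratio reached the lowest vehicle value (p = 0.0286 and, adjusted over 5 doses, 0.0477 by a two-sided exact permutation test; 4 against 4 can give no smaller raw p). The Gapdh ratio did the same, at 0.83 ± 0.06 with vehicle and 0.19 ± 0.07, 0.18 ± 0.04 and 0.34 ± 0.17 at the 3 lowest doses. Single Gapdh ratios ran from 0.76 to 0.89 with vehicle, from 0.10 to 0.26 at 5 and from 0.15 to 0.23 at 20 mg/kg. A fit can therefore hardly separate this ratio from these doses, and calls lost in it do not tell them apart. With the Gapdh ratio as a covariate, 0 collagen genes passed in any comparison, and the differences moved by unlike amounts. At 5 mg/kg Col4a5 differed by -0.71 in that fit (-0.55 without the covariate) and Col15a1 by -0.47 (-0.98), and the collagen median was -0.35 (-0.18). At 20 mg/kg Col16a1 differed by -0.49 (-0.49), Col11a2 by -0.59 (-0.67) and Col9a3 by -0.64 (-0.84). The adjusted p of these 5 differences ran from 0.743 to 0.786. Without replicate 4 at 500 mg/kg as well, Col11a2 differed by -0.11. The part of the RNA ratios in the results was not tested.

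Across doses, few collagen genes passed a test and those that did against vehicle were all lower. At 5 mg/kg, 2 of 25 genes fell and 0 rose, namely Col15a1 and Col4a5, both of the basement membrane group. Of all 10205 genes tested, 3.24% passed at this dose, 1.41% as lower. At 20 mg/kg, 3 of 25 fell and 0 rose, namely Col9a3, Col11a2 and Col16a1, where 5.16% of all genes passed and 2.52% as lower. At 50 mg/kg 0 of 25 passed (0.402% of all genes), and 3 (12%) had an unadjusted p under 0.05, as did 10% of all genes. At 200 mg/kg 0 passed (0% of all genes) with 2 (8%) at that unadjusted level beside 4.4% of all genes, and at 500 mg/kg 0 passed (0% of all genes) with 3 (12%) beside 6.7%. With so few members, counts of 2 and 3 against these shares are a description. The 5 comparisons share the same 4 vehicle arrays.

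More collagen genes lay below vehicle than above it at every dose, most without passing the test. Below vehicle were 21 of 25 at 5 mg/kg, 21 at 20, and 19 each at 50, 200 and 500 mg/kg. That is 84% at the lower pair of doses and 76% at the others, beside 48.6% to 51.7% of all genes. The median difference of the 25 genes was -0.18, -0.21, -0.22, -0.15 and -0.18 in order of dose, and that of all genes lay between -0.01 and 0.00. In the values as deposited, without normalization, the median of all genes was itself 0.20 above vehicle at 5 and 0.38 above it at 20 mg/kg. There 52% and 24% of collagen genes lay below vehicle, with medians of -0.03 and 0.10, again under those of all genes.

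Vehicle arrays were high for much of the family. On replicate 1 of vehicle 21 of 25 genes stood above their own mean over the 24 arrays, on replicate 2 17, on replicate 3 19 and on replicate 4 12. Replicate 2 at 5 mg/kg was the reverse, with 6 genes above their mean and 6 at the lowest value of the 24 arrays. The median deviation of the 25 genes from their own means ran from -0.002 to 0.282 on vehicle arrays and from -0.203 to 0.174 on the 20 treated arrays, so the ranges overlapped. As means over the 25 genes, the deviation was 0.16 ± 0.11 (SD, n = 4) with vehicle, and the 5 treated group means lay between -0.07 and 0.03. Without both vehicle replicates 1 and 2, only Col15a1 fell at 5 mg/kg, Col4a5 differing by -0.37 (adjusted p = 0.279). At 20 mg/kg 0 genes passed in that fit of 22 arrays, where Col11a2 differed by -0.72 (adjusted p = 0.0751), Col16a1 by -0.46 (adjusted p = 0.128) and Col9a3 by -0.64 (adjusted p = 0.147).

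**Figure D1:**
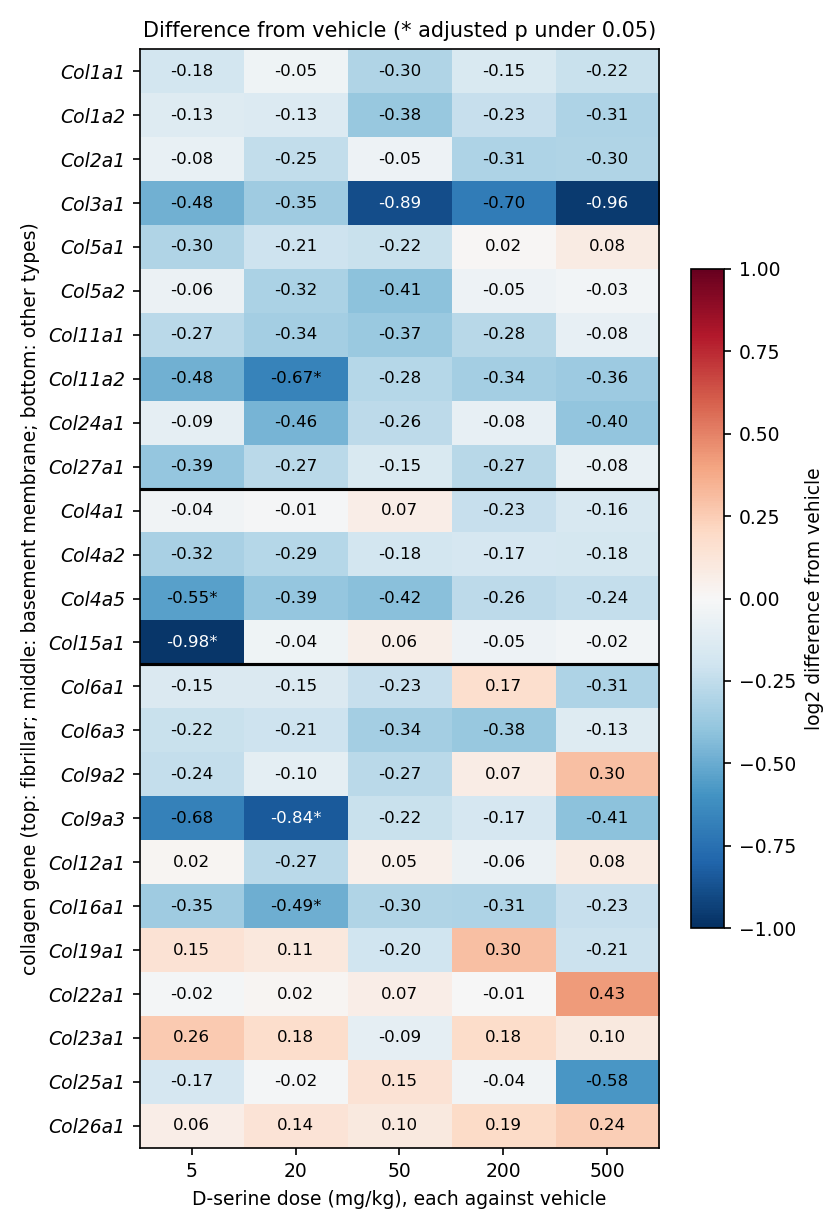
Log2 difference from vehicle (colour and printed value) for the 25 tested collagen genes in rows, fibrillar genes on top, then basement membrane genes, then other types, at each dose in columns. Asterisks mark adjusted p under 0.05, which occur for 2 genes at 5 mg/kg and 3 at 20 mg/kg, all lower.

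Most of the fibrillar group lay below vehicle at every dose, and 1 gene passed. At their probe sets of highest mean, all 10 tested fibrillar genes lay below vehicle at 5, 20 and 50 mg/kg. At 200 and at 500 mg/kg 9 of 10 did, Col5a1 being the exception at both. Other probe sets differed. For Col5a1, 1369955_at, below the filter, had means of 5.96 with vehicle, 5.84 at 200 and 5.27 at 500 mg/kg, thus lower. For Col5a2, 1373463_at had means of 7.31 with vehicle, 7.37 at 5 and 7.45 at both 200 and 500 mg/kg, thus higher. Their medians were -0.23, -0.29, -0.29, -0.25 and -0.26 in order of dose. The marker list of meningeal and vascular fibroblasts, the cells that make most type I and III collagen, moved in part alongside. Of its 9 tested genes of 12 listed, 7 lay below vehicle at 5, 5 at 20, 8 at 50 and 9 at both 200 and 500 mg/kg, with 0 passing. Their summed normalized intensity ran from 876 to 1682.5 on vehicle arrays, from 906 to 1786.5 at 20 and from 880 to 1231.8 at 500 mg/kg. The mean deviation of the list from its own mean was 0.18 with vehicle. In order of dose it was 0.01, 0.16, -0.18, -0.04 and -0.13, so at 20 mg/kg, where the fibrillar call was made, it was near vehicle. Dcn, its defining marker, a fibril-binding proteoglycan, stood between 5.90 and 8.36. The part of fibroblast content in the fibrillar values was not tested.

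Col11a2 (1389891_at), a chain of the type XI collagen that forms the core of cartilage fibrils, fell at 20 mg/kg. Its vehicle arrays read 7.56, 7.42, 7.40 and 7.79 and those at 20 mg/kg 6.87, 6.66, 7.06 and 6.91. The groups did not overlap, and the difference was -0.67 ± 0.17, 1.59-fold lower (adjusted p = 0.0143). At 5 mg/kg the arrays read 7.11, 6.96, 7.0 and 7.17, below every vehicle array too, with a difference of -0.48 ± 0.17 that missed the threshold (adjusted p = 0.0983). At 50 mg/kg all 4 values, from 7.16 to 7.39, also lay below vehicle (-0.28 ± 0.17, adjusted p = 0.516). The 200 and 500 mg/kg groups overlapped vehicle. The value of 6.55 on replicate 4 at 500 mg/kg was the lowest of the 24, and without that array the 500 mg/kg difference went from -0.36 to -0.15. Without vehicle replicate 4 the 20 mg/kg call was lost (-0.58, adjusted p = 0.0537), as it was without replicate 2 at 20 mg/kg (-0.60, adjusted p = 0.0576). In the values as deposited the difference was -0.30 (adjusted p = 0.236).

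Col3a1 (1370959_at) encodes the single chain of type III collagen, found with type I in vessel walls. At the probe sets of highest mean, it had larger differences than any other fibrillar gene at 50, 200 and 500 mg/kg, without passing. Vehicle arrays read 8.39, 7.65, 7.63 and 7.15. At 50 mg/kg the arrays read 6.62, 6.94, 6.72 and 6.99, all below vehicle, with a difference of -0.89 ± 0.25 (1.85-fold, adjusted p = 0.0952). At 500 mg/kg they read 6.71, 6.40, 7.42 and 6.49, overlapping vehicle, with a difference of -0.96 ± 0.25 (unadjusted p = 0.00106, adjusted p = 0.44). At 5, 20 and 200 mg/kg the differences were -0.48, -0.35 and -0.70, each ± 0.25 (adjusted p = 0.324, 0.458 and 0.863). Vehicle replicate 1 held the highest Col3a1 value of all arrays. Over the ranks of dose, from 0 for vehicle to 5, Col3a1 had the smallest p of the family for a slope, -0.17 ± 0.04 per rank (unadjusted p = 0.000531, adjusted p = 0.785). For the slope 0 of 25 collagen genes passed, as did 0% of all genes. At an unadjusted p under 0.05 were 3 (12%; Col3a1, Col22a1 and Col2a1), beside 5.73% of all genes. Col2a1, the cartilage type II chain, fitted -0.06 ± 0.03 per rank (adjusted p = 0.832).

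Type I collagen, the main protein of dura and tendon, has chains from Col1a1 and Col1a2. Col1a1 (1370864_at) read 6.96, 6.88, 7.03 and 6.44 with vehicle and 6.45, 6.46, 6.41 and 6.79 at 50 mg/kg, a difference of -0.30 ± 0.17 (adjusted p = 0.493). Col1a2 (1387854_at) read 7.75, 6.62, 7.20 and 6.24 with vehicle and 6.72, 6.65, 6.32 and 6.62 at 50 mg/kg, a difference of -0.38 ± 0.25 (adjusted p = 0.591). On these probe sets both genes overlapped vehicle at every dose, with differences from -0.05 to -0.30 for Col1a1 and from -0.13 to -0.38 for Col1a2. Their second probe sets gave larger values at 50 mg/kg. Probe set 1388116_at of Col1a1 read 5.26 to 6.44 there, below all vehicle arrays at 6.47 to 7.10, and differed by -0.86 ± 0.27 (adjusted p = 0.14), and 1370155_at of Col1a2 by -0.94 ± 0.30 (adjusted p = 0.134). At 20 mg/kg these probe sets lay above vehicle instead, by 0.03 and 0.12.

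**Figure D2:**
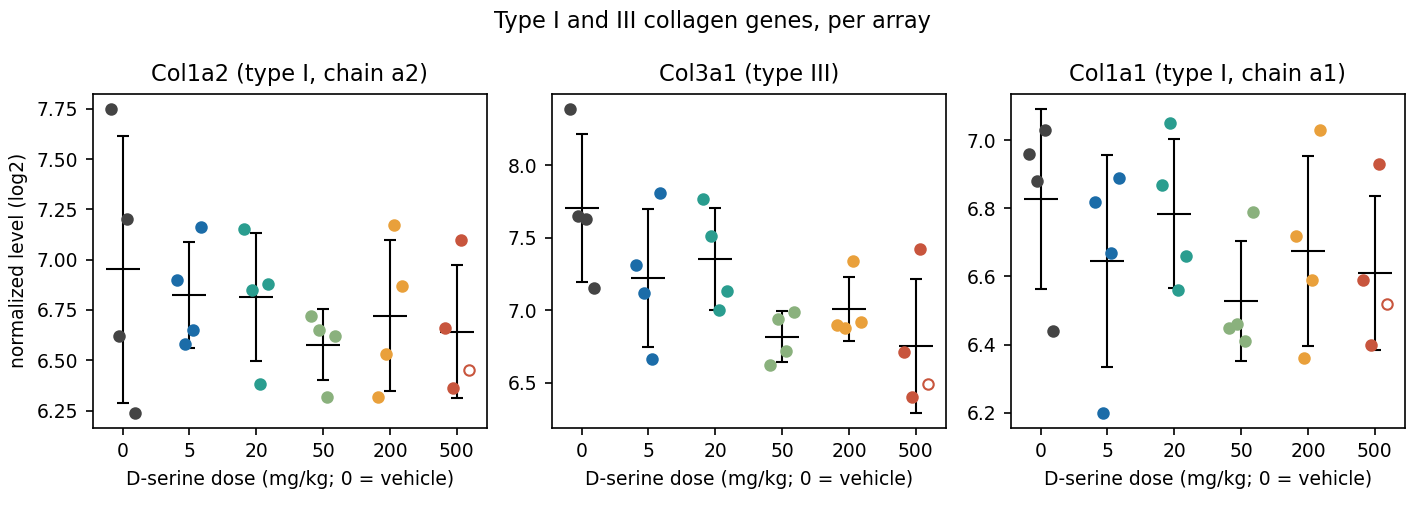
Normalized log2 level of Col1a2, Col3a1 and Col1a1 (vertical axes) on each array by dose (horizontal axes), with group means and SD as bars and replicate 4 at 500 mg/kg open. The Col1a2 and Col3a1 values of vehicle replicate 1, 7.75 and 8.39, are the highest of all 24 arrays.

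From array to array the 3 genes varied together. Over 24 arrays Col1a2 and Col3a1 correlated at r = 0.79 (Spearman's rho = 0.64; permutation p = 2e-05 and 0.00104, adjusted 0.00018 and 0.00324 over 9 pairs). Col1a1 and Col1a2 correlated at r = 0.65 (rho = 0.67; permutation p = 0.00054 and 0.0005, adjusted 0.00162 and 0.00324). Col1a1 and Col3a1 correlated at r = 0.64 (rho = 0.64; permutation p = 0.00044 and 0.00108, adjusted 0.00162 and 0.00324). Taken as deviations from group means and permuted within groups, the values were 0.83, 0.60 and 0.58 (adjusted permutation p = 0.00036, 0.0289 and 0.0422). Without the pair of arrays farthest from the median of the first gene they were 0.66, 0.69 and 0.70. The covariation of type I and III genes was thus present between rats given the same dose. Col1a2 and Dcn gave r = 0.31 (rho = 0.17; permutation p = 0.132 and 0.435, adjusted 0.237 and 0.652). The highest Dcn value, 8.36, was on replicate 1 at 20 mg/kg, where Col1a2 read 7.15. Dcn was the only marker of the fibroblast list paired with a collagen gene, so this pair does not stand for the list.

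Other chain partners were less alike. Col11a1 and Col11a2, both of type XI, gave r = 0.51 (rho = 0.55; permutation p = 0.0115 and 0.00551, adjusted 0.026 and 0.0124). Within groups it was 0.47 (adjusted permutation p = 0.169), without the pair of arrays farthest from the median of Col11a1 0.48, and without replicate 4 at 500 mg/kg 0.41 (adjusted permutation p = 0.11). Col5a1 and Col5a2, of the type V collagen that sets fibril diameter, gave r = 0.03 (rho = 0.12; permutation p = 0.883 and 0.583, adjusted 0.883 and 0.656). Without the farthest pair of arrays that value was 0.21.

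Of the 3 covarying genes only Col1a2 was matched in the RefSeq table of promoters, and the 250 bases before its start are shown, since they hold both a TATAAA and a CCAAT. They lie at chr4:33518307-33518556 on the + strand of GRCr8. Capitals here and in the later sequences mark the TATA box letters TATAAA, the CCAAT box letters and the GC box letters GGGCGG, read on either strand.
Col1a2: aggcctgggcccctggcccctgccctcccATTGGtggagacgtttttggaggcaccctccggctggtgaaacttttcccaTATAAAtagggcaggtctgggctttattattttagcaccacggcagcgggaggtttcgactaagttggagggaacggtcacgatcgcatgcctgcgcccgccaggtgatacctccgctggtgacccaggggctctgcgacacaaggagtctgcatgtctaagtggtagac
The CCAAT, read on the opposite strand, began 221 bases before the start listed for the gene and the TATAAA 170 bases before it. Whether transcripts in these rats begin at the listed start was not tested. TATAAA occurred in 12.9% and CCAAT in 34.0% of the 33469 windows of 250 bases in the table.

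The 4 tested basement membrane genes all lay below vehicle at 5, 20, 200 and 500 mg/kg, and 2 of 4 did at 50 mg/kg, with medians of -0.43, -0.16, -0.06, -0.20 and -0.17 in order of dose. Of this group Col15a1 and Col4a5 passed, both at 5 mg/kg. Col15a1 (1388939_at) encodes type XV collagen, a proteoglycan at the outer face of vascular basement membranes. Vehicle arrays read 7.14, 6.45, 7.12 and 7.25 and those at 5 mg/kg 6.59, 5.56, 6.05 and 5.83. The group means were 6.99 ± 0.36 and 6.01 ± 0.44 (SD, n = 4), a difference of -0.98 ± 0.18, 1.97-fold lower (adjusted p = 0.00271). The groups overlapped by 1 array, vehicle replicate 2, which read below replicate 1 at 5 mg/kg. At the other doses the 16 arrays read 6.70 to 7.31, with differences from -0.05 to 0.06 (adjusted p = 0.933 to 0.998). The 5 mg/kg arrays lay below all of them.

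A test across the 5 treated groups, which uses no vehicle mean, was also passed by Col15a1 (adjusted p = 0.00472), alone among the 25 genes. There 1.51% of all genes passed, and the vehicle arrays still entered the estimate of the spread. Across all 6 groups 2 collagen genes passed, Col15a1 (adjusted p = 0.00405) and Col22a1 (adjusted p = 0.0485), where 3.37% of all genes passed. The 5 mg/kg call held without the 5 arrays of high Ttr (-1.16, adjusted p = 0.00117) and without replicate 4 at 500 mg/kg (-0.98, adjusted p = 0.00166). It was lost with the Gapdh ratio as a covariate, at -0.47 (adjusted p = 0.777), a fit that can hardly separate this ratio from the dose. Its other probe set, 1379345_at, was below the filter and, fitted without it, differed by -0.61 ± 0.26 at 5, -0.55 at 20, -0.26 at 50, -0.64 at 200 and -0.53 at 500 mg/kg, so the 2 probe sets disagreed above 5 mg/kg (adjusted p = 0.274 to 0.914).

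Col4a5 (1374705_at), a type IV chain mutated in X-linked Alport syndrome, also fell at 5 mg/kg. Vehicle arrays read 7.61, 7.75, 7.33 and 7.34 and those at 5 mg/kg 7.01, 6.62, 7.10 and 7.12. The groups did not overlap, and the difference was -0.55 ± 0.13, 1.46-fold lower (adjusted p = 0.0143). At 50 mg/kg, with 7.10, 6.86, 7.24 and 7.17, and at 500 mg/kg, with 7.24, 7.23, 7.30 and 7.30, the arrays also lay below every vehicle array. These differences, -0.42 ± 0.13 and -0.24 ± 0.13, missed the threshold (adjusted p = 0.131 and 0.74), as did -0.39 at 20 and -0.26 at 200 mg/kg (adjusted p = 0.067 and 0.941). The 5 mg/kg call was lost without vehicle replicate 1 (-0.51, adjusted p = 0.0512), without vehicle replicate 2 (-0.46, adjusted p = 0.0573) or without replicate 2 at 5 mg/kg (-0.43, adjusted p = 0.066).

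**Figure D3:**
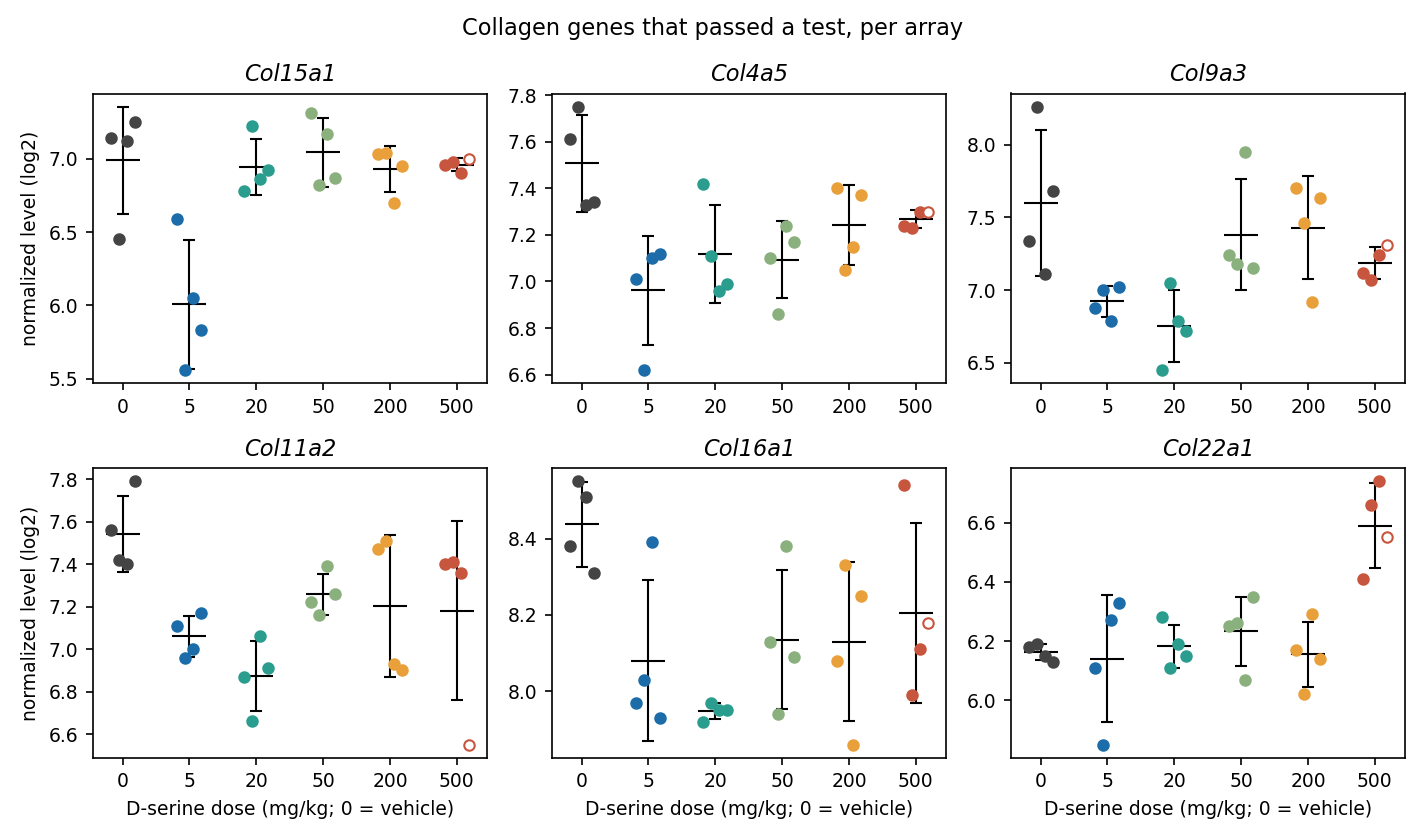
Normalized log2 level (vertical axes) of the 6 collagen genes that passed a test, on each array by dose (horizontal axes), with group means and SD as bars and replicate 4 at 500 mg/kg open. Col15a1 is low at 5 mg/kg alone (5.56 to 6.59), and Col22a1 is high at 500 mg/kg (6.41 to 6.74).

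Col4a1 and Col4a2 encode the chains of the most widespread type IV network. Neither passed a test. Col4a1 (1373245_at) read 7.33, 6.88, 7.53 and 7.25 with vehicle, its differences running from -0.23 at 200 to 0.07 at 50 mg/kg (adjusted p = 0.801 to 0.977). Col4a2 (1388494_at) read 7.80, 7.43, 7.51 and 7.51 with vehicle and 7.41, 7.19, 7.20 and 7.32 at 20 mg/kg. Those groups did not overlap, and the difference of -0.29 ± 0.12 missed the threshold (adjusted p = 0.152). At 5 mg/kg the difference of Col4a2 was -0.32 ± 0.12 (adjusted p = 0.125). The 10 tested endothelial markers of 12 listed gave 0 calls, with 8 below vehicle at 5, 9 at 20 and 50, 7 at 200 and 8 at 500 mg/kg. Their summed normalized intensity ran from 1614.9 to 2460.1 on vehicle arrays and from 1660.1 to 1874.1 at 5 mg/kg, and their part in the Col4a5 and Col15a1 results was not tested.

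The 2 type IV genes lie head to head on chromosome 16, Col4a1 on the + strand and Col4a2 on the − strand, with 76 bases between their starts. That stretch, chr16:84885521-84885596 on the + strand of GRCr8, lies upstream of both genes and is shown because the 2 levels can be set beside a shared promoter region.
Col4a1 and Col4a2: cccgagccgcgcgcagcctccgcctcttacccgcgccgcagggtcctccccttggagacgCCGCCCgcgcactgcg
It held 1 GGGCGG, on the opposite strand, and neither TATAAA nor CCAAT. The GC box letters occurred in 18.1% of the 33469 windows of the 76 bases before a start. Across the 24 arrays the 2 genes gave r = 0.04 (rho = 0.04; permutation p = 0.839 and 0.866, adjusted 0.883 and 0.866), within groups 0.07, and without the pair of arrays farthest from the median of Col4a1 0.15. Col4a1 with Cldn5, the tight junction gene of endothelium, gave r = 0.19 (rho = 0.18; permutation p = 0.373 and 0.384, adjusted 0.56 and 0.652). With Vtn, the vitronectin gene of pericytes, it gave 0.06 (rho = 0.12; permutation p = 0.766 and 0.571, adjusted 0.883 and 0.656). Without the farthest pair these were 0.07 and 0.10. Col4a1 has another tested probe set, 1372439_at, of nearly the same mean (7.17, beside 7.19 for 1373245_at). It read 7.44, 7.28, 7.22 and 7.13 with vehicle. No pair was run with it, so the Col4a1 correlations hold for 1373245_at alone. The SD of Col4a1 and Col4a2 over all arrays was 0.19 and 0.18, beside 0.36 and 0.48 for Col1a2 and Col3a1. For Col1a1, which correlated with both of the latter, it was 0.25. For Col5a1 and Col5a2, which gave r = 0.03, it was 0.32 and 0.40. The part of the spread in these correlations was not tested.

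**Figure D4:**
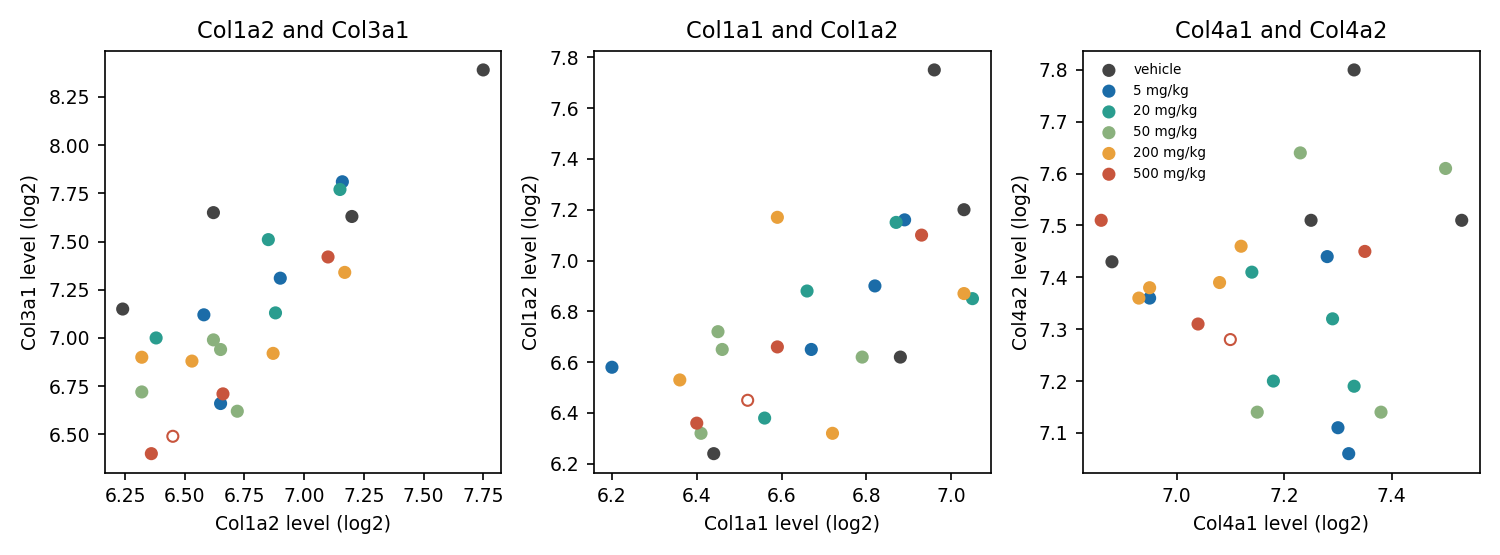
Level of one gene against another on the 24 arrays (log2 on both axes, coloured by dose, replicate 4 at 500 mg/kg open). Col1a2 and Col3a1 (r = 0.79) and Col1a1 and Col1a2 (r = 0.65) rise together. Col4a1, at probe set 1373245_at, and Col4a2 show no such relation (r = 0.04).

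Among the other types, both genes that fell at 20 mg/kg encode collagens that associate with fibrils. Col9a3 (1377631_at), a chain of type IX, which coats cartilage fibrils, read 7.34, 8.26, 7.11 and 7.68 with vehicle and 6.45, 7.05, 6.79 and 6.72 at 20 mg/kg. The groups did not overlap, and the difference was -0.84 ± 0.21, 1.79-fold lower (adjusted p = 0.0139). At 5 mg/kg the arrays read 6.88, 7.0, 6.79 and 7.02, again below every vehicle array, with a difference of -0.68 ± 0.21 (adjusted p = 0.0624). Without replicate 4 at 500 mg/kg that difference passed (adjusted p = 0.0437), and Col11a2 passed at 5 mg/kg as well, making 4 genes. At 50, 200 and 500 mg/kg the Col9a3 differences were -0.22, -0.17 and -0.41 (adjusted p = 0.745, 0.998 and 0.726).

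Col9a3 was compared with Ttr and with the myelin list. On the 5 arrays of high Ttr, Col9a3 read 8.26 (vehicle replicate 2), 7.95 (replicate 3 at 50 mg/kg), 7.70 and 7.63 (replicates 1 and 4 at 200 mg/kg) and 7.31 (replicate 4 at 500 mg/kg). On the other arrays it read 6.45 to 7.68, so the ranges overlapped. The mean deviation of the myelin list from its own mean was 0.73 on vehicle replicate 2, 0.59 on vehicle replicate 4 and 0.58 on replicate 3 at 50 mg/kg, where Col9a3 read 8.26, 7.68 and 7.95. It was -0.82 on replicate 1 at 20 mg/kg and -0.58 on replicate 3 at 200 mg/kg, where Col9a3 read 6.45 and 6.92. The part of the myelin and choroid plexus genes in the Col9a3 result was not tested. Since Ttr fell into separate ranges, no correlation is given. Without vehicle replicate 2 the 20 mg/kg difference of Col9a3 was -0.62 (adjusted p = 0.0595), and it was also not called without replicate 1 at 20 mg/kg (-0.74, adjusted p = 0.0531). In the values as deposited it was -0.48 (adjusted p = 0.0957). Without all 5 arrays of high Ttr it was -0.62 and passed (adjusted p = 0.0126). The 7 tested choroid plexus markers of 12 listed gave 0 calls. Their summed normalized intensity ran from 920 to 13188 on vehicle arrays, from 905 to 958 at 5 and from 703 to 929 at 20 mg/kg.

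Col8a2 (1374172_at), a short-chain collagen of the cornea's Descemet membrane, fell just below the filter. It read 7.01, 6.72, 6.08, 6.97 and 6.62 on the same 5 arrays and 5.13 to 6.40 elsewhere. Col8a2 lies outside the rule by which genes were named and was set beside Ttr after its values were seen.

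**Figure D5:**
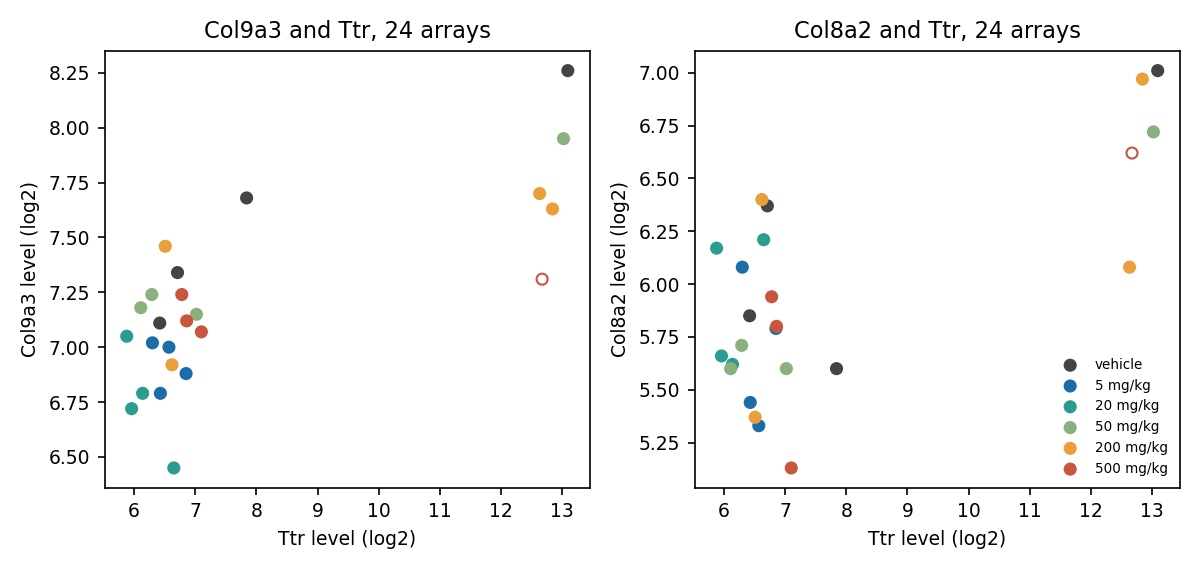
Level of Col9a3 (left) and Col8a2 (right) against that of Ttr on 24 arrays (log2 on all axes, coloured by dose, replicate 4 at 500 mg/kg open). The 5 arrays with Ttr above 12.6 hold the highest Col9a3 values of 7.70 to 8.26 and the highest Col8a2 values of 6.62 to 7.01, with some overlap with the rest.

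Col16a1 (1390846_at), type XVI, a fibril-associated collagen made by fibroblasts and smooth muscle, read 8.38, 8.55, 8.51 and 8.31 with vehicle and 7.92, 7.97, 7.95 and 7.95 at 20 mg/kg. The groups did not overlap, and the 20 mg/kg arrays lay within 0.05 of each other. The difference was -0.49 ± 0.12, 1.41-fold lower (adjusted p = 0.0154). With each array centred on its median it was -0.39 (adjusted p = 0.0561), and in the values as deposited -0.08 (adjusted p = 0.705). At the other doses it lay between -0.35 and -0.23 (adjusted p = 0.104 to 0.893), each group overlapping vehicle. Of 8 tested smooth muscle and pericyte markers of 10 listed, 3, 3, 4, 5 and 5 lay below vehicle in order of dose. Their medians were 0.05 at 20 and 0.02 at 50 mg/kg. Among them Rgs5 rose at 20 mg/kg (0.56 ± 0.13, adjusted p = 0.00849) and Myl9 fell at 50 mg/kg (-0.71 ± 0.16, adjusted p = 0.0371). Acta2, the actin of smooth muscle, stood between 6.65 and 7.81 on all arrays.

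Col22a1 (1377813_at), type XXII, found at tissue junctions such as muscle and tendon, was the 1 gene that passed with its arrays high. At 500 mg/kg it read 6.41, 6.66, 6.74 and 6.55, above all other arrays, which read 5.85 to 6.35. The difference from vehicle was 0.43 ± 0.11 (unadjusted p = 0.000645, adjusted p = 0.40), so the dose comparison alone missed the threshold. The test across the 5 treated groups missed it too (adjusted p = 0.0549), and without replicate 4 at 500 mg/kg the test across the 6 groups gave 0.0962.

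Of the 6 genes that passed a test, 4 matched the RefSeq promoter table, and the 250 bases before their starts are printed because theirs are the levels that changed. Col11a2 lies at chr20:4817649-4817898 (− strand), Col16a1 at chr5:147672846-147673095 (+), Col4a5 at chrX:109907109-109907358 (+) and Col15a1 at chr5:66297296-66297545 (+), all in GRCr8.
Col11a2: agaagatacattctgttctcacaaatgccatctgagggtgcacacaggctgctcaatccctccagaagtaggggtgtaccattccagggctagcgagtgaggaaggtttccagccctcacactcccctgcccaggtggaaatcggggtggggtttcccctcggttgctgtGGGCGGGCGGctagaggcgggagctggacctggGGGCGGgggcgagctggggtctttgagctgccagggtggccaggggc
Col16a1: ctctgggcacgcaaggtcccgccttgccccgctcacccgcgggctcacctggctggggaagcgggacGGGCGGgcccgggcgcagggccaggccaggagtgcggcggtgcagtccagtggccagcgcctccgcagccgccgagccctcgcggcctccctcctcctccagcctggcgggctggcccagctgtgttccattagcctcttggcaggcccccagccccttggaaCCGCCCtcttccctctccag
Col4a5: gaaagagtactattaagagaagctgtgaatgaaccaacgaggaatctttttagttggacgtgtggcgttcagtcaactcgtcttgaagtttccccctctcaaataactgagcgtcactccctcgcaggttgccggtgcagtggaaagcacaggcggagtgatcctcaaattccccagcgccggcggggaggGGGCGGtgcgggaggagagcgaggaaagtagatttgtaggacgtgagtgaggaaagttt
Col15a1: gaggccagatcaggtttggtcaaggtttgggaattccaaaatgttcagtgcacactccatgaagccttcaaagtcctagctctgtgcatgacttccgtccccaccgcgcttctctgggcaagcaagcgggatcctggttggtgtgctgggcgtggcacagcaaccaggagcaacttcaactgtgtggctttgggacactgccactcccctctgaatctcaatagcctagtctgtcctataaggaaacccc
Col11a2 held 3 copies of GGGCGG, with 2 of them overlapping, Col16a1 held 2 and Col4a5 held 1. The Col15a1 window held none of the 3 motifs, and another RefSeq locus overlaps it. GGGCGG was found in 30.5% of all 33469 windows. Of the 41 collagen genes 32 matched the table, 18 of them with GGGCGG, 9 with CCAAT and 4 with TATAAA. The median GC content of these windows was 59.2%, beside 51.2% for all windows. A match describes letters and no binding.

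Replicate 4 at 500 mg/kg held outlying values for several genes of the family. Col25a1, a membrane collagen of neurons, read 5.79 there and 8.08 to 8.88 on the other 23 arrays. Col19a1, a minor collagen made by some interneurons, read 5.52 there and 6.55 to 7.74 elsewhere. Col9a2, the partner of Col9a3 in type IX, read 8.52 there and 6.02 to 7.07 elsewhere. Of the 25 genes, 5 had their lowest value of all arrays on this array and 2 their highest. None of these 3 genes passed a test with it (Col25a1 -0.58 ± 0.39, Col19a1 -0.21 ± 0.32 and Col9a2 0.30 ± 0.34 at 500 mg/kg, adjusted p = 0.768, 0.896 and 0.857). Without it 64% of collagen genes, not 76%, lay below vehicle at 500 mg/kg, with a median of -0.14.

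Col6a1 (1371349_at), of the type VI microfilaments that surround cells, overlapped vehicle at every dose. It read 7.82, 7.15, 7.5 and 7.34 with vehicle, and its differences ran from -0.31 at 500 to 0.17 at 200 mg/kg (adjusted p = 0.747 to 0.998). Col18a1 (1388459_at), the source of endostatin in vascular basement membranes, was below the filter. It read 6.43, 6.08, 5.33 and 6.60 with vehicle, as low as 4.59 at 200 mg/kg and 7.37 on replicate 4 at 500 mg/kg. Fitted without the filter it differed by -0.79 ± 0.34 at 50 mg/kg (adjusted p = 0.398). Of the other dim genes, Col20a1 alone passed in that fit, at 20 mg/kg (-0.68 ± 0.20, adjusted p = 0.0473), a gene named after its values were seen. The 5 largest SDs over the 24 arrays were those of Col18a1 (0.61), Col25a1 (0.58), Col6a2 (0.56), Col8a1 (0.54) and Col9a1 (0.52). Of these Col6a2, a type VI chain, ran from 4.44 to 6.21, Col8a1, a short-chain collagen of vessel walls, from 4.33 to 6.32, and Col9a1, a type IX chain, from 4.24 to 6.11. These 3 genes were too dim to test and did not pass when fitted without the filter (adjusted p from 0.317 upward).

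The genes that make, bind and break down collagen showed 0 calls at any dose. Of 66 listed genes 42 were tested, and 33, 30, 36, 32 and 33 of them lay below vehicle in order of dose. Their medians were -0.11, -0.14, -0.14, -0.10 and -0.13, and 3, 8, 7, 3 and 2 genes had an unadjusted p under 0.05. These are 7.14%, 19%, 16.7%, 7.14% and 4.76% of the 42, beside 14.8%, 16.9%, 10%, 4.4% and 6.7% of all genes. Of the 14 tested genes for chain modification and folding, Serpinh1, the collagen chaperone, had the smallest unadjusted p at 500 mg/kg (-0.54 ± 0.13, unadjusted p = 0.000401, adjusted p = 0.309). Mia3, needed to load procollagen into transport carriers, differed by -0.27 ± 0.08 at 5 mg/kg (adjusted p = 0.0546). Among the 17 fibril-binding and basement membrane partners, Lamb2, a laminin chain, differed by -0.55 ± 0.17 at 50 mg/kg (adjusted p = 0.131). Of the 6 genes of degradation, Timp3, an inhibitor of matrix metalloproteinases, differed by -0.52 ± 0.17 at 5 mg/kg (adjusted p = 0.0869). The 4 receptors tested gave 0 calls, and 1 of 12 listed genes for propeptide cleavage and cross-linking was bright enough to test. These 4 examples were picked for their small p after the values were seen.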

How the data were processed

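RNA of 24 rat forebrain pieces, 1 Affymetrix array per animal, was analysed in 6 groups of 4 taken from the labels. The authors deposited 1 intensity per probe set, on a linear scale, which the submitters' processing notes tie to GCOS, the Affymetrix scanner software. Its version and scaling target: not given in the sources used here. Because array medians of the deposited values spanned 0.73 in log2(intensity + 16), the arrays were quantile normalized. A fold change is on the log2(intensity + 16) scale and understates the change of dim genes. Tests ran on 18625 probe sets, after 57 controls and the dimmest 40% (mean under 5.98) had been removed. Gene symbols came from the platform annotation, brought up to date through the RefSeq gene table of GRCr8, which changed 0 collagen symbols.

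With limma 3.58.1 in R 4.3.3, all arrays were fitted together by group, the prior variance following intensity. Adjustment (Benjamini-Hochberg) was made per comparison over all probe sets. Each dose was compared with vehicle, F tests covered the 6 groups and the 5 treated groups, and a slope was fitted over dose rank. The model was tested on simulated data. Pairs of genes were correlated with 100000 permutations. Of 12 planned pairs 9 were run, since a gene of the other 3 was below the filter. Counts of helix triplets in the proteins were planned and not done, as protein sequences were not used here. Promoter sequences are from RefSeq (GRCr8).

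Genes named are those that passed any test, 9 chosen for their roles, the 5 with the largest SD over the arrays, the 3 of smallest p where fewer than 3 passed, passing genes of the pathway list and the defining cell type markers. Others, such as Col8a2, Col20a1 and the examples of the pathway list, were named after their values were seen. Members, lists and rule were chosen with earlier results of these data known. Alternatives were other filters, scalings, pseudocounts, moderation, weights, covariates and left-out arrays. Leaving out the 5 arrays of high Ttr, or vehicle replicates 1 and 2 together, was added after seeing the data. No batch was tested, as scan dates were not used here. Checked against each other, 0 array pairs were identical.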

Additional observations from a re-analysis of the deposited data

Results flagged for a closer look

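Within groups of 4, an array is singled out here where its gap to the nearest other array exceeded Dixon's limit of 95% for the whole range of the group. Chance gives about 1 in 20 such results, or 7.2 of the 144 combinations of 24 genes and 6 groups looked at, and 17 were found, 10 of them in collagen genes. For these 24 genes the largest SDs were taken among tested genes only, so Col6a2, Col8a1 and Col9a1 were not looked at.

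Replicate 4 at 500 mg/kg gave 6 of the 17. On it Col25a1 read 5.79 against 8.46 to 8.64 in the rest of the group, Col19a1 read 5.52 against 7.32 to 7.37, and Col11a2 read 6.55 against 7.36 to 7.41. Ttr read 12.67 against 6.78 to 7.10, Gabra6 read 10.73 against 4.57 to 5.25, and Nrgn read 6.41 against 11.08 to 11.49. On replicate 3 at 50 mg/kg both Ttr, at 13.02 against 6.11 to 7.02, and Col9a3, at 7.95 against 7.15 to 7.24, were high.

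In vehicle replicate 2 Col15a1 read 6.45 against 7.12 to 7.25. Col1a1 read 6.79 on replicate 4 at 50 mg/kg against 6.41 to 6.46. Col25a1 read 8.55 on replicate 2 at 200 mg/kg against 8.33 to 8.36, and Col3a1 read 7.34 on replicate 3 at that dose against 6.88 to 6.92. Col2a1 read 5.65 on replicate 1 at 20 mg/kg against 6.0 to 6.04. Col4a1 read 6.95 on replicate 4 at 5 mg/kg against 7.28 to 7.32. Among markers, Cldn5 read 9.04 on replicate 2 at 5 mg/kg, Mbp 12.71 on replicate 1 at 20 mg/kg and Gabra6 5.26 on replicate 4 at 20 mg/kg.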

How the results depend on the processing

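No paired analysis was possible because the labels give each array its own animal and no replicate numbers shared between groups. Counts of collagen genes called at 5 mg/kg, 2 as reported, were 1 with the lowest 60% of probe sets left out, 1 in the values as deposited, 4 with array weights, 0 with the Gapdh ratio as a covariate with or without replicate 4 at 500 mg/kg, and 1 without vehicle replicates 1 and 2. Leaving out 1 array at a time gave 1 to 4, with 1 without vehicle replicate 1, vehicle replicate 2 or replicate 2 at 5 mg/kg, and 4 without replicate 4 at 500 mg/kg. At 20 mg/kg, 3 as reported, they were 0 as deposited, 0 with the covariate either way and 0 without vehicle replicates 1 and 2, and 2 to 4 leaving out 1 array. Across the 6 groups, 2 as reported, they were 1 without filter, 0 with 60% left out, 1 with median centring, 1 with a pseudocount of 1, 1 with robust moderation, 4 with array weights, 1 with 1 probe set per gene, 0 with the covariate either way, 1 without vehicle replicates 1 and 2, and 1 to 3 leaving out 1 array. Col22a1 was lost there in 29 of 37 alternatives. Across the 5 treated groups, 1 as reported, they were 0 with 60% left out, 4 as deposited, 2 with a pseudocount of 64, 2 without an intensity trend, 2 with array weights, 0 with the covariate either way, and 1 to 2 leaving out 1 array. The share below vehicle became 52% at 5 and 24% at 20 mg/kg as deposited, and the collagen median at 20 mg/kg turned to 0.10. The Col11a1 and Col11a2 correlation was 0.41 without replicate 4 at 500 mg/kg. At 50, 200 and 500 mg/kg and for the slope the count was 0 under every alternative run. Beyond the arrays and genes left out by construction, the cause was not tested.

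Signal near background kept 16 collagen genes out of the tests, and 4 arrays per group limit the precision of the rest. The animal numbers in the labels follow the dose groups, so any order of handling that followed them and dose cannot be told apart.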
